A study of Mus musculus with 8 samples.

Results

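Dense distal peak clusters are stretches of the genome where many accessible sites lie close together and away from gene ends. They were collected here from an ATAC-seq peak table of splenic regulatory T (Treg) cells. A peak on chromosomes 1 to 19 was taken as distal when it lay more than 2500 bp from both ends of every protein-coding gene. Neighbouring distal peaks with gaps of at most 12.5 kb were joined into regions, and regions of 10 or more peaks were kept as clusters. This gave 251 clusters that hold 3327 of the 57199 peaks, or 5.82%. They hold 8.33% of the 39949 distal peaks. The joining rule uses peak positions alone, with no count in it.

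The genotypes compared are named Flcn KO and WT. Flcn KO cells came from Foxp3Cre Flcn fl/fl donors, in which Cre recombinase expressed from Foxp3 deletes the floxed Flcn gene in Foxp3-expressing cells, and WT cells came from wild-type donors. Both were sorted as CD45.2+CD45.1-CD4+Foxp3-YFP+ cells from spleens of mixed bone-marrow chimeras, mice whose blood system was rebuilt from a mixture of marrows. There were 4 libraries of each genotype, described in the labels as biological replicates. The sources used here do not give age, strain or the other marrow in the mixture, nor whether WT donors carried Cre. ATAC-seq marks open chromatin by the insertion of sequencing adapters by a transposase. Accessibility is given as CPM, the count scaled to the TMM-adjusted library size, and as summed CPM when the peaks of a cluster are added up.

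Enhancers are stretches of DNA outside promoters that bind transcription factors and raise transcription of genes that may lie far away. Genes that define a cell type often sit within dense groups of enhancers, which are usually collected by joining nearby sites. Treg cells keep immune responses in check, and their identity rests on the transcription factor Foxp3 and on interleukin-2 signalling. Folliculin, encoded by Flcn, helps lysosomes to pass on amino acid levels to mTORC1, and where it is active TFEB and TFE3, transcription factors of lysosome genes, stay in the cytoplasm. Accessibility shows that DNA is open and does not by itself show enhancer activity or the gene that a site acts on.

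Library totals ran from 2723344 to 5111728 counts in Flcn KO and from 3986331 to 4914976 counts in WT. Between 88.7% and 92.7% of the peak counts of a library were even, as when each read pair adds 2 counts. Peaks assigned to the 6 Treg and T cell marker genes summed to between 909 and 1056 CPM in Flcn KO and between 903 and 968 CPM in WT, and all 6 genes had a peak. The 6 B cell markers summed to between 79.9 and 87.1 CPM in Flcn KO and between 85.0 and 108 CPM in WT, with Ms4a1 and Cd79b at 0. The 4 CD8 T and NK cell markers summed to between 17.7 and 36.7 CPM in Flcn KO and between 26.6 and 35.3 CPM in WT, with Ncr1 at 0. The 6 myeloid markers summed to between 33.4 and 45.0 CPM in Flcn KO and between 35.5 and 58.3 CPM in WT, with Lyz2 and Csf1r at 0. At Flcn itself, the 2 peaks inside the gene that held fewest counts had 2 to 21 counts in each Flcn KO library and 0 to 2 counts in each WT library, which is below the filter on low counts. The other 2 Flcn peaks, near a gene end, had log2 fold changes of −0.28 and −0.57 and were not called. The labels do not say which exons are floxed, and these peaks are no check of the genotype. Marker levels of other cell types overlapped between the groups, and their part in the results was not tested. In bulk samples, fewer cells with an open site and a less open site in each cell cannot be told apart.

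The rule keeps clusters away from the outer ends of genes but not from alternative start sites inside them. Of the 3327 member peaks, 3186 lay on chromosomes with RefSeq start-site windows (250 bases before to 50 bases after a start). Of those 3186, 85 overlapped a window, at 42 protein-coding and 40 noncoding genes. They are shown because, among the 3186, only they overlapped an annotated start site, which gives a strand. The 250 bases before the start are printed for the 1 such peak that was called and for the 3 with the highest WT level, from RefSeq, build GRCm38.p6 (mm10), 5′ to 3′ on the strand of the gene. Capitals mark matches to 5 motifs searched on both strands: CACGTG (E-box, read by TFEB and TFE3), TGTGGT (RUNX), CCGGAA (ETS), TGANTCA (AP-1) and TGTTTAC (forkhead).
Tnfrsf9 (chr4:150927749-150927998, forward strand, GRCm38.p6): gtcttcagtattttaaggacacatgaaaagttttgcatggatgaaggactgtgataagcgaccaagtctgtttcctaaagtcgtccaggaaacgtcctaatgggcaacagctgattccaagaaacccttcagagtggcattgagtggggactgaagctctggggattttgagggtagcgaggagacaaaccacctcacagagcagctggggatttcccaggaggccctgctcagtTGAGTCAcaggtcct
Slc39a10 (chr1:46853619-46853868, reverse strand, GRCm38.p6): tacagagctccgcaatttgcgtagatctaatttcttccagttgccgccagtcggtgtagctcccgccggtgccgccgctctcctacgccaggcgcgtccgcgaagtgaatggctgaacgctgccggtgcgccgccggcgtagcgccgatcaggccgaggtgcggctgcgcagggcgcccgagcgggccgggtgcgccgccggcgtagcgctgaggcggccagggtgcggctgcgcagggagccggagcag
Chaserr (chr7:73558396-73558645, reverse strand, GRCm38.p6): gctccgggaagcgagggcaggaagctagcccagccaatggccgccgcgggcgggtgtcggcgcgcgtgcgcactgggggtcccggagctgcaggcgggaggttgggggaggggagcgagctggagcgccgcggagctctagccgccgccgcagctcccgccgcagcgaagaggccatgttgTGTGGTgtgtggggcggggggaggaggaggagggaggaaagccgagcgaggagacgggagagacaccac
Apbb1ip (chr2:22774077-22774326, forward strand, GRCm38.p6): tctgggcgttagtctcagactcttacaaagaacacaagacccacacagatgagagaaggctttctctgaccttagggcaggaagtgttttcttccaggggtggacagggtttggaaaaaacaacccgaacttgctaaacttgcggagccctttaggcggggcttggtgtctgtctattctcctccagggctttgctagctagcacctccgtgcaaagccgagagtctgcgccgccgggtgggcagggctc

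Over the printed 250 bases, Tnfrsf9 held 1 AP-1 match, 15 bases before the start, and Chaserr held 1 RUNX match, 69 bases before the start. No match to the 5 motifs was found in the printed stretches of Slc39a10 and Apbb1ip. Among all 32851 start-site windows in the table, an AP-1 match was present in 6.75%, a RUNX match in 14.0%, an ETS match in 12.03%, an E-box match in 6.02% and a forkhead match in 3.17%. A match is a stretch of letters and not a measured binding site. The G and C content of the printed bases was 49.6% for Tnfrsf9, 71.6% for Slc39a10, 73.6% for Chaserr and 54.8% for Apbb1ip.

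The peak at the internal start of Tnfrsf9, which encodes the costimulatory receptor 4-1BB, had 4.999, 2.10, 0.978 and 2.25 CPM in the Flcn KO libraries, against 7.76, 5.70, 6.77 and 8.23 CPM in the WT libraries. Every Flcn KO library lay below every WT library, replicate 1 by the least. It was lower in Flcn KO (log2 fold change −1.40 ± 0.39 SE, adjusted p = 0.0434 by edgeR), a call that ended without any single library other than Flcn KO replicate 1. At the internal start of the zinc importer gene Slc39a10 the values were 283, 403, 391 and 434 CPM in Flcn KO and 332, 347, 436 and 405 CPM in WT, and the groups overlapped (log2 fold change −0.01 ± 0.11 SE, adjusted p = 0.982 by edgeR). Chaserr, a long noncoding RNA gene beside the chromatin remodeller gene Chd2, had 110.0, 136, 121 and 130.4 CPM in Flcn KO and 136, 111, 118 and 134 CPM in WT, with overlapping groups (log2 fold change −0.01 ± 0.10 SE, adjusted p = 0.983 by edgeR). Apbb1ip, which encodes an adaptor of integrin activation, had 94.6, 81.5, 105 and 93.7 CPM in Flcn KO and 95.6, 97.9, 91.5 and 102 CPM in WT, again overlapping (log2 fold change −0.05 ± 0.10 SE, adjusted p = 0.911 by edgeR). Of the 82 start-site peaks that passed the filter on low counts, 1 was called, against 2.37% of all tested peaks.

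The clusters spanned between 25.9 and 137 kb with a median of 56.0 kb, and held between 10 and 34 peaks with a median of 12. They lay on every chromosome from 1 to 19, from 5 on chromosome 19 to 23 on chromosome 6. The median gap between neighbouring peaks was 3902 bp. At the edge of the rule, 65 clusters had exactly 10 peaks and 75 regions just outside it had 9. Those with 10 peaks had median summed CPM of 139.8 in Flcn KO and 138 in WT, and those with 9 peaks had 118 in Flcn KO and 112 in WT. The nearest member peak lay 2511 bp from a gene end.

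Most clusters lay over genes. A single protein-coding gene was covered by 177 clusters, 18 covered 2 genes each and 56 covered none, and 202 distinct genes were covered in all. In 126 clusters every base lay within 1 gene, and 69.3% of the member peaks lay inside a gene. Of the 56 clusters over no protein-coding gene, 41 overlapped an annotated long noncoding RNA gene and 9 overlapped no annotated gene of any kind. In all, 11 genes carried a pair of clusters each: Akap13, Arid5b, Asap1, Atp10a, Bach2, Bcl2, Etv6, Foxp1, Itpr1, Lef1 and St8sia1. Antigen receptor segments lay under 2 clusters, 1 over the T cell receptor beta segments and 1 over the joining segments of the alpha chain beside Dad1.

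The cluster with the most peaks lay within Prkch, which encodes protein kinase C eta, with 34 peaks over 136 kb (chromosome 12, 73593072 to 73729079). Next came Chd2 with 29 peaks, Tox with 27, and Ikzf2 and a Bach2 cluster with 25 each. Tox encodes a nuclear factor of T cell development and exhaustion, Ikzf2 encodes the Treg factor Helios, and Bach2 encodes a repressor that keeps T cells undifferentiated. Clusters over Foxp1, a factor of T cell quiescence, Akap13, which encodes a guanine nucleotide exchange factor, and Jak1, the kinase of common cytokine receptors, had 24 peaks each. In WT, the highest summed accessibility was at Tnfrsf1b and Tnfrsf8 (678 CPM), which encode the receptors TNFR2 and CD30. Slc39a10 (658 CPM), Chd2 (657 CPM), Prkch (633 CPM) and Tox (481 CPM) came next, then the ubiquitin ligase gene Cblb (474 CPM), Rapgef2 (463 CPM) and the nuclear receptor corepressor gene Nrip1 (452 CPM).

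Within a cluster the signal was uneven. The highest peak held between 10.8% and 68.4% of the summed WT CPM, with a median of 26.0%, and in 17 clusters it held more than 50%. Prkch was the most even and a cluster 242.5 kb from Btg1 the least. In Slc39a10 the internal start-site peak alone held 57.7% of the WT sum. The median member peak was 348 bp wide, against 332 bp for other distal peaks and 434 bp for peaks within 2500 bp of a gene end. Its accessibility per length was 24.1 CPM per kb in Flcn KO and 23.4 CPM per kb in WT. Other distal peaks had medians of 14.7 CPM per kb in Flcn KO and 14.4 in WT, and gene-end peaks had 32.7 in Flcn KO and 33.4 in WT.

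The lists of genes differed in how many of their members lay under a cluster. Of the protein-coding genes on chromosomes 1 to 19, 0.977% (202 of 20665) were covered. In the Treg identity list 6 of 22 genes (27.3%) were covered, namely Il2ra, Ctla4, Ikzf2, Tnfrsf9, Tnfrsf1b and Entpd1. In the list of T cell receptor and costimulation signalling 12 of 39 (30.8%) were covered, among them Cd28, Cd247 and Ptprc. Of the T cell transcription factors 10 of 39 (25.6%) were covered, among them Ets1, Ikzf1, Runx2 and Bcl11b, and of the resting T cell genes 4 of 18 (22.2%), namely Lef1, Satb1, Bach2 and Foxp1. Cytokine receptor and STAT genes followed with 4 of 30 (13.3%), effector and tissue Treg genes with 2 of 24 (8.33%), T helper lineage genes with 1 of 15 (6.67%) and apoptosis genes with 1 of 16 (6.25%). None of the genes was covered in the lists for chemokine receptors and adhesion (19 genes), folliculin, mTORC1 and lysosome (32), mitochondria (18), B cells (12), CD8 T and NK cells (10) or myeloid cells (13). Long genes have more room for distal peaks, and gene length was not adjusted for.

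**Figure D1:**
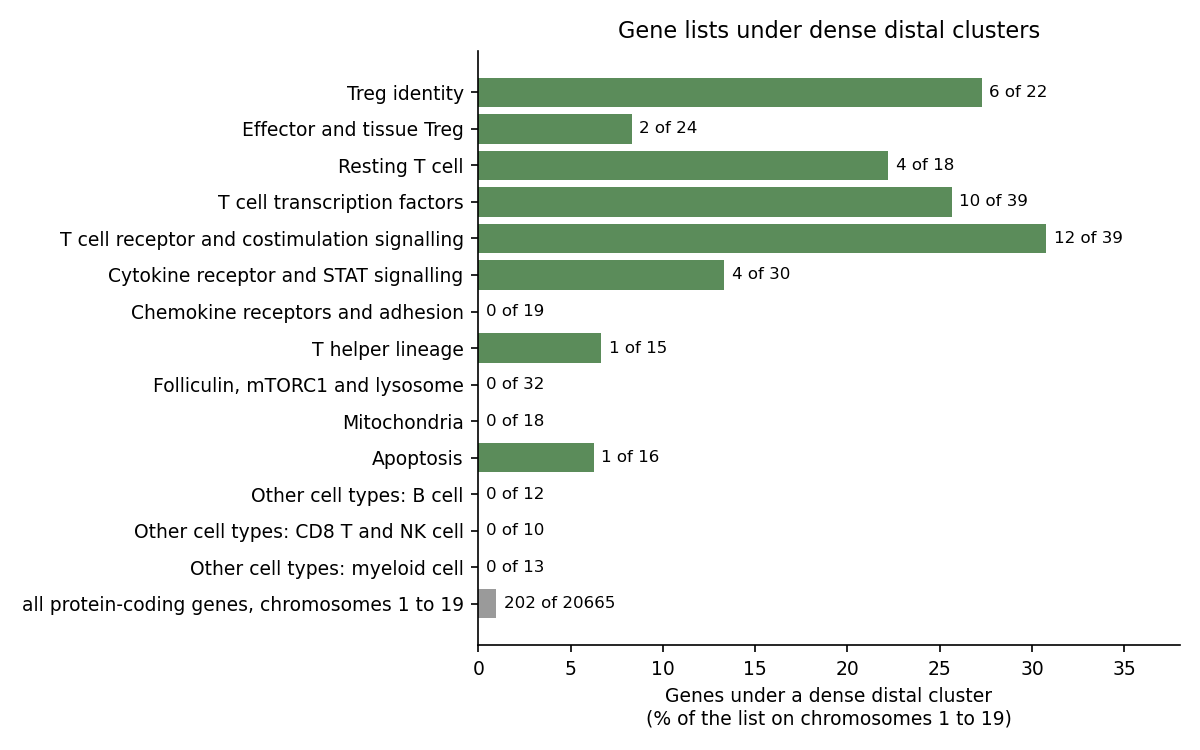
Share of each gene list that lies under a dense distal cluster, in percent of the list's genes on chromosomes 1 to 19, with the counts beside each bar; the grey bar is all protein-coding genes. T cell receptor and costimulation genes reach 30.8% and Treg identity genes 27.3%, against 0.977% of all genes, and 6 lists have no covered gene.

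As a whole, the clusters held a part of the accessibility that was not distinguishable between the genotypes. They held 5.16%, 5.00%, 5.52% and 5.02% of the counts of the Flcn KO libraries, against 5.22%, 5.21%, 4.78% and 4.62% of those of the WT libraries. The groups overlapped. The means were 5.18% ± 0.242 in Flcn KO and 4.96% ± 0.3003 in WT (SD, n = 4), a difference of 0.218 percentage points that was within the spread between libraries (exact two-sided permutation test over 70 splits, p = 0.314; the smallest p possible is 0.029).

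Cluster by cluster, few differed between the genotypes. The counts of the peaks of each distal region were summed and all 16775 distal regions that passed the filter on low counts were tested together (edgeR quasi-likelihood test, Benjamini-Hochberg adjustment over all of them, threshold 0.05). Of the 251 clusters, 4 were higher in Flcn KO (1.59%) and 0 were lower, where 2.8% of all tested distal regions were called higher and 2.25% lower, together 5.05%. Unadjusted edgeR p-values below 0.05 were found for 31 higher and 8 lower clusters (12.4% and 3.19%), against 9.32% and 7.43% of all tested distal regions, and DESeq2 called 7 higher and 0 lower. The libraries of the genotypes did not overlap at 14 higher clusters and 1 lower cluster, against 5.6% and 4.39% of the tested distal regions. Those shares are 5.58% and 0.398% of the clusters. With loess offsets, which level the changes along mean accessibility, 2 clusters were called higher and 2 lower. The count also rested on single libraries. Without Flcn KO replicate 1, 19 clusters were higher and 4 lower. Without WT replicate 2, 3 were higher, and without WT replicate 3, 2 were. Without Flcn KO replicate 2 or 3 or WT replicate 1, 1 cluster was higher, and without Flcn KO replicate 4 or WT replicate 4 none was, with 1 lower in the last case. The shares of all distal regions given above are from the main fit. Shares under DESeq2, loess offsets or left-out libraries are not given here. These shifts in the cluster counts therefore cannot be told apart from a shift in calls over all regions.

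Changes of clusters were small. Log2 fold changes ran from −0.40 to 0.42, with a median of 0.06 and a median absolute value of 0.10, and 176 clusters (70.1%) lay above 0. With DESeq2 size factors and with library size alone 68.1% lay above 0, with medians of 0.052 and 0.048. With loess offsets 49.8% lay above 0 and the median was −0.00. Loess offsets level the changes along mean accessibility by construction, and the cause of the lean was not tested. Distal regions of 1 peak had a median absolute log2 fold change of 0.28, those of 2 to 4 peaks 0.20 and those of 5 to 9 peaks 0.12. Calls, of either direction, reached 4.29% of tested regions of 1 peak, 6.04% of those of 2 to 4 peaks, 5.38% of those of 5 to 9 peaks and 1.59% of the clusters. The spread of a region's value also narrows as more peaks are added, with a median SE of 0.35 for 1 peak and 0.10 for the clusters.

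**Figure D2:**
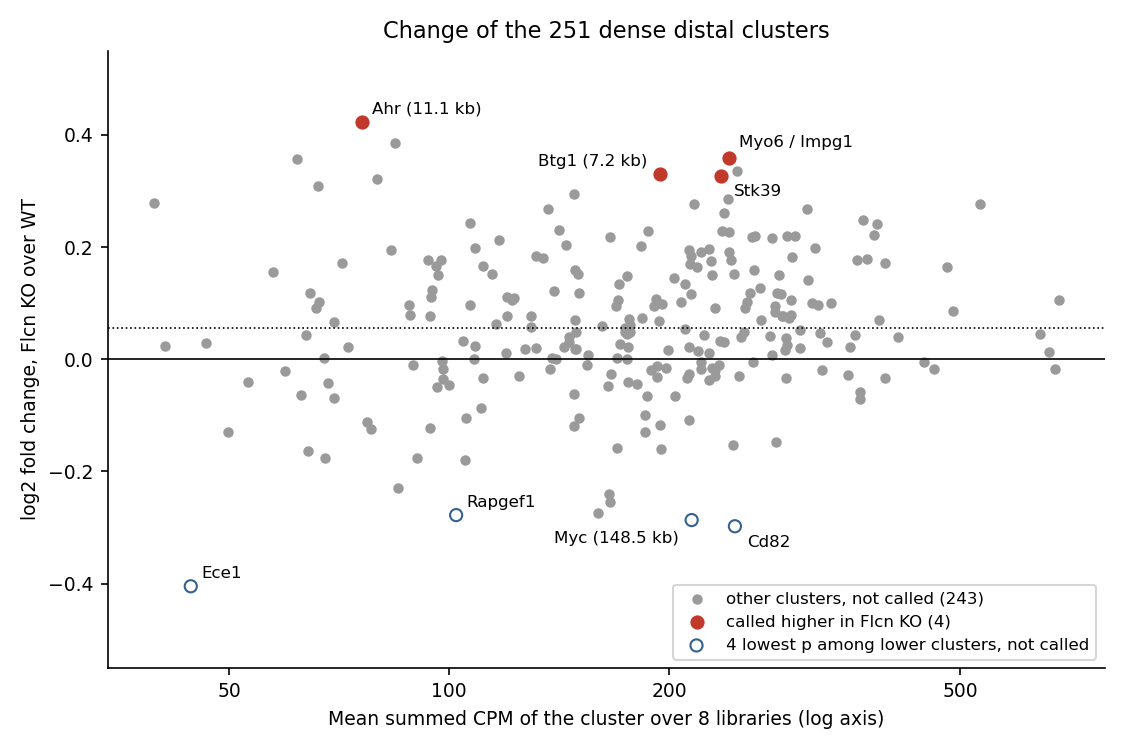
Log2 fold change of each of the 251 clusters (vertical, Flcn KO over WT) against its mean summed CPM over the 8 libraries (horizontal, log axis), each point 1 cluster; the dotted line is their median. The 4 called clusters, in red, lie between 0.33 and 0.42, and the open circles are the 4 clusters with the lowest p among those lower in Flcn KO, none of which was called.

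**Figure D3:**
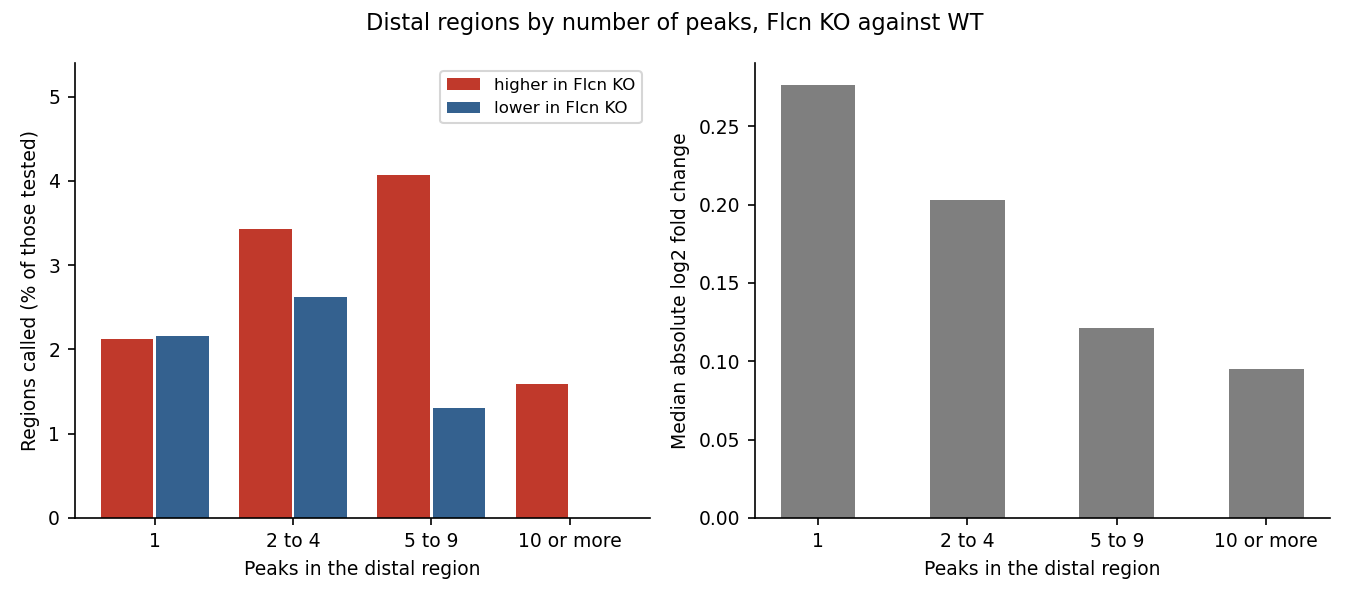
Distal regions grouped by their number of peaks. The left panel shows the percent of tested regions called higher or lower in Flcn KO, and the right panel the median absolute log2 fold change, which is 0.28 for regions of 1 peak and 0.10 for the clusters of 10 or more.

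The cluster with the largest change lay 11.1 kb from Ahr, between that gene and Agr3 (chromosome 12, 35546136 to 35608063), and held 10 peaks over 61.9 kb. Ahr encodes the aryl hydrocarbon receptor, a transcription factor switched on by small molecules from diet, microbes and pollutants. The cluster's summed accessibility was 90.4, 88.8, 81.0 and 87.7 CPM in the Flcn KO libraries, against 55.1, 70.7, 72.2 and 61.7 CPM in the WT libraries. Every Flcn KO library lay above every WT library. The cluster rose in Flcn KO (log2 fold change 0.42 ± 0.12 SE, adjusted p = 0.0293 by edgeR). Mean CPM was higher at 8 of its 10 peaks, 6 peaks were tested and none was called by itself. The largest gain was at its highest peak (31.3 ± 4.51 CPM in Flcn KO and 20.5 ± 5.03 CPM in WT, log2 fold change 0.63 ± 0.18 SE, adjusted p = 0.0527 by edgeR), at 35578878 to 35579544. Ahr itself had a peak at the gene boundary that faces the cluster, at 35534040 to 35535296. That peak had 91.8 ± 12.6 CPM in Flcn KO and 81.9 ± 10.6 CPM in WT and was not called (adjusted p = 0.620 by edgeR). The call of the cluster ended without Flcn KO replicate 2 or 4 or WT replicate 1 or 4, with adjusted p up to 0.114.

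The second called cluster lay over Myo6, a myosin of endocytic transport, and Impg1, a proteoglycan gene of the retina (chromosome 9, 80252206 to 80344800), with 18 peaks. Its summed accessibility was 235, 240.2, 322 and 288 CPM in Flcn KO, against 222, 216, 213 and 194 CPM in WT. Every Flcn KO library lay above every WT library, with replicates 3 and 4 of Flcn KO the highest. The cluster rose (log2 fold change 0.36 ± 0.10 SE, adjusted p = 0.0326 by edgeR). Of its 16 tested peaks 1 was called, at 80317910 to 80318487 of chromosome 9, with 81.5, 77.3, 126 and 109 CPM in Flcn KO against 75.5, 63.2, 58.7 and 56.6 CPM in WT. That peak, the highest of the cluster, rose with no overlap between the groups (log2 fold change 0.62 ± 0.13 SE, adjusted p = 0.00524 by edgeR) and gave 34.9 of the 60.1 CPM by which the cluster's mean was higher. Its call ended without Flcn KO replicate 3 (adjusted p = 0.0515 by edgeR). The cluster's call ended without Flcn KO replicate 3 or 4 or WT replicate 2, 3 or 4, with adjusted p up to 0.177.

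A cluster of 15 peaks within Stk39 (chromosome 2, 68289155 to 68351084), the gene of a kinase that regulates cation and chloride cotransport, had 268, 256, 264 and 260.0 CPM in Flcn KO, against 191, 237, 218 and 189.8 CPM in WT. The Flcn KO libraries were close together and all above WT. It rose (log2 fold change 0.33 ± 0.09 SE, adjusted p = 0.0354 by edgeR). The peak that was second highest in both genotypes, at 68296654 to 68297188 of chromosome 2, had 60.0, 51.5, 68.2 and 60.0 CPM in Flcn KO against 34.7, 42.1, 39.1 and 35.3 CPM in WT, again without overlap. That peak rose (log2 fold change 0.66 ± 0.13 SE, adjusted p = 0.00148 by edgeR), and the highest peak of the cluster had 88.0 ± 5.27 CPM in Flcn KO and 68.5 ± 9.72 CPM in WT (adjusted p = 0.0694 by edgeR). The cluster's call ended with loess offsets and without Flcn KO replicate 2, 3 or 4 or WT replicate 1, 3 or 4, with adjusted p up to 0.122.

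The fourth called cluster lay 7.2 kb from Btg1, between that gene and Eea1 (chromosome 10, 96565412 to 96609765), with 13 peaks. Btg1 encodes an antiproliferative factor that helps to hold T cells in quiescence. The cluster had 196, 206, 242 and 222 CPM in Flcn KO, against 176, 192, 155 and 165 CPM in WT. The groups did not overlap, though Flcn KO replicate 1 and WT replicate 2 were close. It rose (log2 fold change 0.33 ± 0.10 SE, adjusted p = 0.0456 by edgeR). A pair of its peaks was called. At 96575356 to 96575735 of chromosome 10 the values were 16.3, 28.4, 23.5 and 21.4 CPM in Flcn KO and 10.2, 10.5, 6.52 and 10.9 CPM in WT (log2 fold change 1.22 ± 0.22 SE, adjusted p = 0.000787 by edgeR), and at 96605159 to 96605587 of chromosome 10 they were 7.88, 9.99, 11.2 and 10.5 CPM in Flcn KO and 3.27, 5.27, 2.51 and 3.87 CPM in WT (log2 fold change 1.39 ± 0.31 SE, adjusted p = 0.00748 by edgeR). At both peaks every Flcn KO library lay above every WT library. Other clusters nearest to Btg1, 242.5 kb and 63.0 kb from it, had log2 fold changes of 0.08 and 0.20 and were not called. The call near Btg1 ended with DESeq2 size factors, with library size alone, with loess offsets, and without Flcn KO replicate 2, 3 or 4 or WT replicate 1, 3 or 4, with adjusted p up to 0.175.

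**Figure D4:**
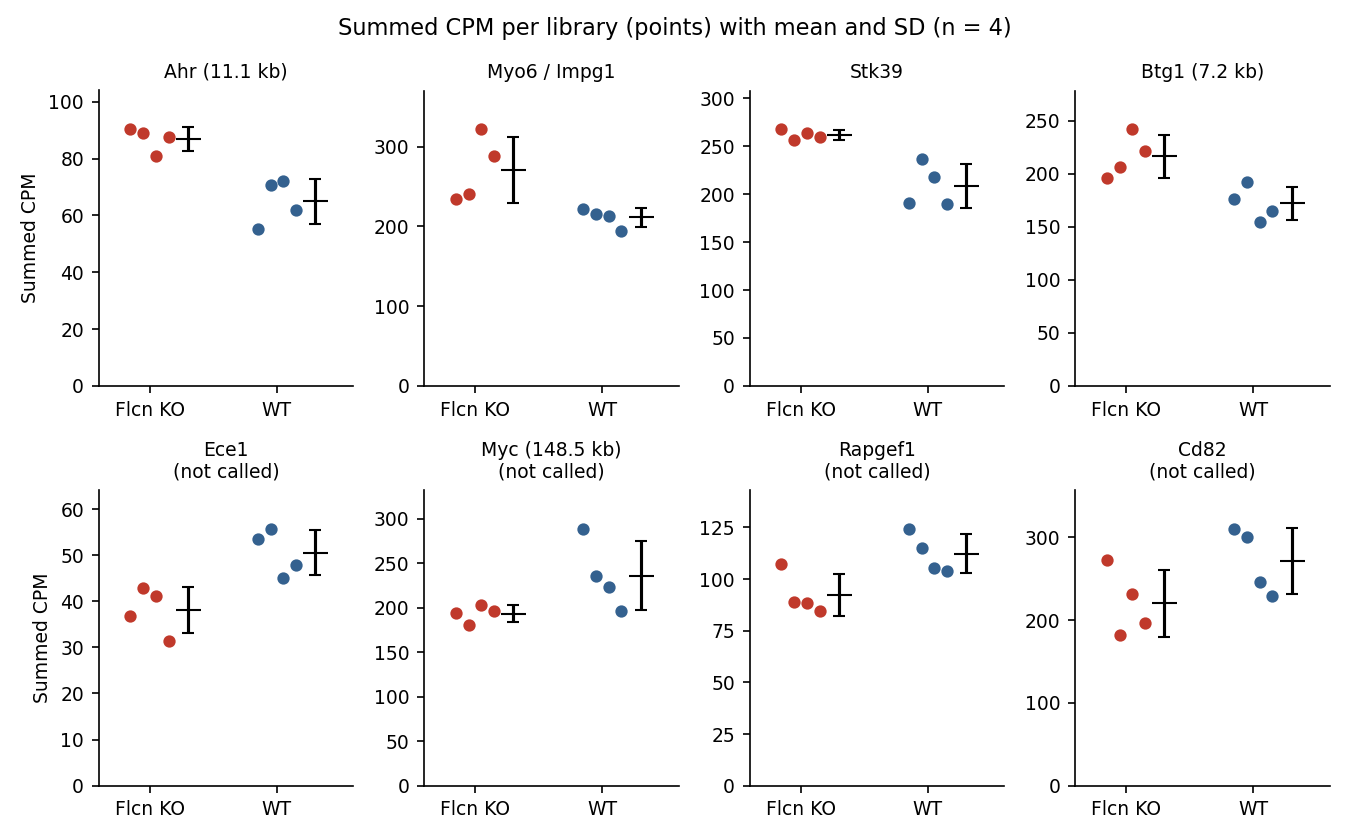
Summed CPM of 8 clusters in each library (points; Flcn KO left, WT right), with the mean and SD of 4 libraries beside them. In the upper row, the 4 called clusters, no Flcn KO point falls to the level of a WT point; in the lower row, the 4 clusters with the lowest p among those lower in Flcn KO, the groups overlap except at Ece1 and none was called.

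No cluster passed the test as lower in Flcn KO. The lowest p among the lower ones was at Ece1, the gene of endothelin-converting enzyme, with 36.9, 42.8, 41.1 and 31.5 CPM in Flcn KO and 53.5, 55.7, 45.1 and 47.9 CPM in WT. There the groups did not overlap (log2 fold change −0.40 ± 0.14 SE, adjusted p = 0.0976 by edgeR). A cluster 148.5 kb from Myc, over the long noncoding RNA gene Pvt1, had 194, 181, 203 and 196 CPM in Flcn KO and 289, 236, 223 and 196 CPM in WT, with 1 WT library within the Flcn KO range (log2 fold change −0.29 ± 0.10 SE, adjusted p = 0.117 by edgeR). Clusters at Rapgef1, the gene of a Rap exchange factor, and Cd82, a tetraspanin gene, overlapped between the groups as well. Their log2 fold changes were −0.28 (SE 0.11, edgeR adjusted p = 0.167) and −0.30 (SE 0.12, adjusted p = 0.168). With loess offsets the Cd82 and Myc clusters were called lower, and without Flcn KO replicate 1 the Rapgef1 and Cd82 clusters were, as was the Myc cluster without WT replicate 4. Within Cd82 the peak that was highest in WT, at 93454213 to 93454764 of chromosome 2, had 46.5, 41.3, 44.5 and 37.1 CPM in Flcn KO and 70.6, 64.1, 67.2 and 54.5 CPM in WT and fell with no overlap (log2 fold change −0.59 ± 0.12 SE, adjusted p = 0.00399 by edgeR).

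The largest clusters did not differ detectably. Prkch had 653 ± 43.4 CPM in Flcn KO and 633 ± 63.7 CPM in WT (log2 fold change 0.05 ± 0.08 SE, adjusted p = 0.859 by edgeR; SD over 4 libraries). For Chd2 the values were 664 ± 50.9 CPM in Flcn KO and 657 ± 25.8 CPM in WT (log2 fold change 0.01 ± 0.08 SE, adjusted p = 0.962 by edgeR). Tnfrsf1b and Tnfrsf8 together had 669 ± 46.1 CPM in Flcn KO and 678 ± 69.4 CPM in WT (log2 fold change −0.02 ± 0.08 SE, adjusted p = 0.954 by edgeR). At Slc39a10 they were 709 ± 87.9 CPM in Flcn KO and 658 ± 69.4 CPM in WT (log2 fold change 0.11 ± 0.09 SE, adjusted p = 0.642 by edgeR). The direction of these 4 flipped under an alternative, with loess offsets for Chd2, Prkch and Slc39a10 and without single libraries for Tnfrsf1b and Tnfrsf8. Tox came closest to the threshold among the large clusters, with 583 ± 63.5 CPM in Flcn KO and 481 ± 25.5 CPM in WT (log2 fold change 0.28 ± 0.09 SE, adjusted p = 0.0604 by edgeR), and passed it with a stricter filter, with DESeq2 or without Flcn KO replicate 1. Foxp1 (0.26, edgeR adjusted p = 0.120), Akap13 (0.25, adjusted p = 0.114) and Jak1 (0.24, adjusted p = 0.235) had positive log2 fold changes that missed the threshold, though Foxp1 and Akap13 passed it without Flcn KO replicate 1. Of the other clusters with the highest WT signal, Nrip1 had 507 ± 61.5 CPM in Flcn KO and 452 ± 22.8 CPM in WT (log2 fold change 0.16 ± 0.09 SE, adjusted p = 0.374 by edgeR). Cblb had 503 ± 42.2 CPM in Flcn KO and 474 ± 27.3 CPM in WT (0.09, adjusted p = 0.691), and the sign flipped with loess offsets. Rapgef2 had 458 ± 47.2 CPM in Flcn KO and 463 ± 12.5 CPM in WT (−0.02, adjusted p = 0.956), and its sign flipped without Flcn KO replicate 2.

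Of the 6 clusters over Treg identity genes 0 passed the test by edgeR or DESeq2, and 1 was higher and 0 were lower at an unadjusted p below 0.05. Their median log2 fold change was 0.03, where all clusters had 0.06; with loess offsets these were −0.05 and −0.00. Il2ra, which encodes the interleukin-2 receptor alpha chain CD25, had 200.2, 201, 201 and 181 CPM in Flcn KO and 195, 172, 164 and 149 CPM in WT over 16 peaks, with 1 library of each genotype in the other's range (log2 fold change 0.20 ± 0.10 SE, adjusted p = 0.289 by edgeR). Ctla4, the gene of the inhibitory receptor CTLA-4, had 244, 312, 304 and 312 CPM in Flcn KO and 289, 309, 259 and 252 CPM in WT over 23 peaks. These overlapped, with Flcn KO replicate 1 the lowest of all 8 (log2 fold change 0.08 ± 0.10 SE, adjusted p = 0.775 by edgeR). Ikzf2 had 205, 269, 257 and 304 CPM in Flcn KO and 246, 239, 224 and 220.3 CPM in WT, also overlapping (log2 fold change 0.15 ± 0.10 SE, adjusted p = 0.509 by edgeR). Tnfrsf9 with Park7 (−0.10, edgeR adjusted p = 0.690), Tnfrsf1b with Tnfrsf8 (−0.02) and Entpd1, the gene of the ectonucleotidase CD39 (−0.12, adjusted p = 0.651), had negative values.

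Ctla4 stood in a row of 3 neighbouring clusters on chromosome 1. Its neighbour over Cd28, the costimulatory receptor gene, had 279 ± 31.0 CPM in Flcn KO and 240.0 ± 10.9 CPM in WT (log2 fold change 0.22 ± 0.09 SE, adjusted p = 0.217 by edgeR) and was called higher without Flcn KO replicate 1. A cluster 16.3 kb from Icos had 61.2 ± 7.96 CPM in Flcn KO and 64.3 ± 13.2 CPM in WT (log2 fold change −0.06 ± 0.14 SE, adjusted p = 0.886 by edgeR). Bach2 likewise had 3, 1 of them 58.3 kb from the gene (232 ± 13.4 CPM in Flcn KO and 258 ± 25.6 CPM in WT) and 2 inside it. The first of these had 240.0 ± 20.7 CPM in Flcn KO and 235 ± 28.3 CPM in WT. The second had 345 ± 28.7 CPM in Flcn KO and 322 ± 25.02 CPM in WT. The log2 fold changes were −0.15, 0.03 and 0.10 and none passed the test. The 7 clusters over resting T cell genes lay over 4 genes, with a pair each at Lef1, Bach2 and Foxp1. Clusters only nearest to such a gene, at Bach2 (−0.15) and S1pr1 (0.04), are not among the 7. All 7 had log2 fold changes above 0, from 0.03 to 0.27, with a median of 0.18. Of all 251 clusters 176 (70.1%) lay above 0. With loess offsets 5 of the 7 did, with a median of 0.14, where 49.8% of all clusters did. By edgeR 0 of the 7 were called, 2 were higher at an unadjusted p below 0.05, against 12.4% of all clusters, and DESeq2 called 0. The 11 clusters over T cell transcription factor genes had a median of 0.05, the 12 over T cell receptor and costimulation genes 0.01 and the 4 over cytokine receptor and STAT genes 0.14. With loess offsets these medians were −0.01, −0.04 and 0.07.

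Single peaks within clusters were called at a rate near that of all tested peaks. Of the 3327 members, 3028 passed the filter on low counts and were tested with all 47859 tested peaks. In Flcn KO 45 members were higher and 22 were lower (edgeR quasi-likelihood test, Benjamini-Hochberg adjusted p below 0.05), together 2.21% of those tested, and 2961 were not called. Among all tested peaks 1.35% were called higher and 1.02% lower, together 2.37%. Other distal peaks were called at 3.20% and gene-end peaks at 0.846%. The libraries of the genotypes did not overlap at 161 tested members with higher and 94 with lower values in Flcn KO, or 5.32% and 3.10% of them, against 4.02% and 3.57% of all tested peaks. Among the called members, 39 of 45 higher ones and 20 of 22 lower ones were without overlap. Calls and overlap are read from the same counts, so this gives no separate support for the calls. At least 2-fold changes made up 20 of the higher and 18 of the lower calls. The 67 called peaks lay in 57 clusters, 47 with 1 and 10 with 2, and 4 clusters held 1 in each direction (Dipk1a, Galnt2, the pair Tg and Sla, and the pair Tnfrsf1b and Tnfrsf8). In 194 clusters no peak was called. The counts moved with single libraries, from 22 higher without Flcn KO replicate 3 to 61 without Flcn KO replicate 1, and from 9 lower without WT replicate 2 to 35 without Flcn KO replicate 1. Higher calls also came to 29 without Flcn KO replicate 2, 27 without WT replicate 2 and 25 without WT replicate 4. Lower calls came to 12 without Flcn KO replicate 4 and 14 without Flcn KO replicate 2, WT replicate 1 or WT replicate 4. The shares of all tested peaks called without these libraries are not given here, so a shift particular to the members was not tested.

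Some peaks moved against or ahead of their neighbours. Each peak was tested for a change that departs from the rest of its region (edgeR's test for differential exon usage, applied with regions in place of genes and adjusted over 22320 peaks). Among the members 25 of 3028 departed (0.826%), 13 upwards and 12 downwards in 24 clusters, against 0.453% of all peaks so tested. That wider set includes peaks of smaller regions, each compared with fewer neighbours, so the shares are not like for like. Of these, 24 were also called against WT by themselves; the exception was a Tox peak. Without single libraries the count ran from 10 (WT replicate 1) to 33 (Flcn KO replicate 1), with 11 without WT replicate 2, 15 without WT replicate 4 and 13 without Flcn KO replicate 2, 3 or 4. The 6 clusters described next had the lowest adjusted p for departure.

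In Slc39a10, a peak inside the gene at 46864089 to 46864629 of chromosome 1 had 111, 104, 127 and 142 CPM in the Flcn KO libraries, against 44.3, 52.7, 67.2 and 58.1 CPM in the WT libraries. Each Flcn KO library was well above each WT library. It rose 2.17-fold (log2 fold change 1.12 ± 0.12 SE, adjusted p = 1.08e-07 by edgeR; 1.01 relative to its cluster, adjusted p for departure = 1.48e-07), and it kept its call under every alternative. This peak gained 65.3 CPM while the cluster as a whole was 50.7 CPM higher, and 7 of its 11 peaks had lower means in Flcn KO. A weaker peak of the same cluster, at 46886778 to 46887376 of chromosome 1, had 7.08 ± 2.999 CPM in Flcn KO and 2.45 ± 1.43 CPM in WT and was also called higher, with overlapping groups (log2 fold change 1.48 ± 0.42 SE, adjusted p = 0.0457 by edgeR), a call that ended under 8 of 14 alternatives.

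Ptprc encodes CD45, the leukocyte phosphatase whose allelic forms served in the sort, and both genotypes were sorted for the same form. Its peak at 138185909 to 138186312 of chromosome 1, 10153 bp outside the gene's nearest end, had 4.61, 5.26, 2.45 and 3.75 CPM in Flcn KO, against 11.8, 19.7, 11.04 and 12.6 CPM in WT. All Flcn KO libraries lay below all WT libraries. It fell (log2 fold change −1.77 ± 0.29 SE, adjusted p = 0.000223 by edgeR; −1.91 relative to its cluster, adjusted p for departure = 1.32e-05), while the cluster as a whole did not pass the test (log2 fold change 0.15 ± 0.10 SE, adjusted p = 0.545 by edgeR). In Map3k1, the gene of a kinase upstream of JNK, the peak at 111772092 to 111772412 of chromosome 13 had 1.92, 2.10, 1.47 and 1.499 CPM in Flcn KO, against 8.98, 17.99, 8.03 and 6.78 CPM in WT. WT replicate 2 was the highest and the groups did not overlap. This peak fell (log2 fold change −2.55 ± 0.38 SE, adjusted p = 3.63e-05 by edgeR; −2.30 relative to its cluster, adjusted p for departure = 3.34e-05), and its cluster had a log2 fold change of −0.24 (adjusted p = 0.227 by edgeR).

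Dipk1a, which encodes a kinase-like protein of the endoplasmic reticulum, held 1 departing peak in each direction. The peak at 107941253 to 107941616 of chromosome 5 had 5.38, 12.4, 15.7 and 9.74 CPM in Flcn KO, against 1.23, 3.07, 2.51 and 0.968 CPM in WT, with no overlap. It rose (log2 fold change 2.45 ± 0.39 SE, adjusted p = 0.000105 by edgeR; 2.43 relative to its cluster, adjusted p for departure = 1.58e-06). The peak at 107932532 to 107932997 of chromosome 5 had 3.08, 4.21, 2.45 and 2.998 CPM in Flcn KO, against 14.9, 8.78, 9.53 and 14.0 CPM in WT, also with no overlap and in the opposite direction. It fell (log2 fold change −1.89 ± 0.31 SE, adjusted p = 0.000188 by edgeR; −1.91 relative to its cluster, adjusted p for departure = 3.94e-05). The summed cluster had 148 ± 13.1 CPM in Flcn KO and 144 ± 11.5 CPM in WT and was not called (log2 fold change 0.03, adjusted p = 0.926 by edgeR).

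A cluster of 17 peaks lay 6.9 kb from Cd69, the gene of an early activation antigen that keeps lymphocytes in tissue. Its peak at 129246979 to 129247313 of chromosome 6 had 1.54, 1.58, 2.93 and 1.499 CPM in Flcn KO, against 6.13, 8.78, 8.03 and 12.6 CPM in WT, with all Flcn KO libraries below all WT libraries. It fell (log2 fold change −2.20 ± 0.37 SE, adjusted p = 0.000314 by edgeR; −2.47 relative to its cluster, adjusted p for departure = 9.75e-07), although 15 of the 17 peaks of that cluster had higher means in Flcn KO. The cluster itself had 337 ± 23.7 CPM in Flcn KO and 279.8 ± 7.66 CPM in WT and missed the threshold (log2 fold change 0.27 ± 0.09 SE, adjusted p = 0.0688 by edgeR). With DESeq2 or without Flcn KO replicate 1 it was called higher.

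In Smco4, the gene of a small membrane protein, the peak at 15501328 to 15501695 of chromosome 9 had 2, 0, 0 and 0 counts in the Flcn KO libraries, against 22, 48, 16 and 32 counts in the WT libraries. It was near 0 in every Flcn KO library and present in every WT library, and it was called lower (adjusted p = 3.08e-06 by edgeR) and departing (adjusted p for departure = 1.52e-06). Counted as read pairs, the sums were 1 in Flcn KO and 59 in WT, a ratio of 52.9 for WT over Flcn KO with an exact 95% interval of 9.14 to 2125 that covers counting error only. The cluster as a whole had 151 ± 19.2 CPM in Flcn KO and 181 ± 25.2 CPM in WT (log2 fold change −0.25, adjusted p = 0.212 by edgeR), and was called lower without Flcn KO replicate 1.

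**Figure D5:**
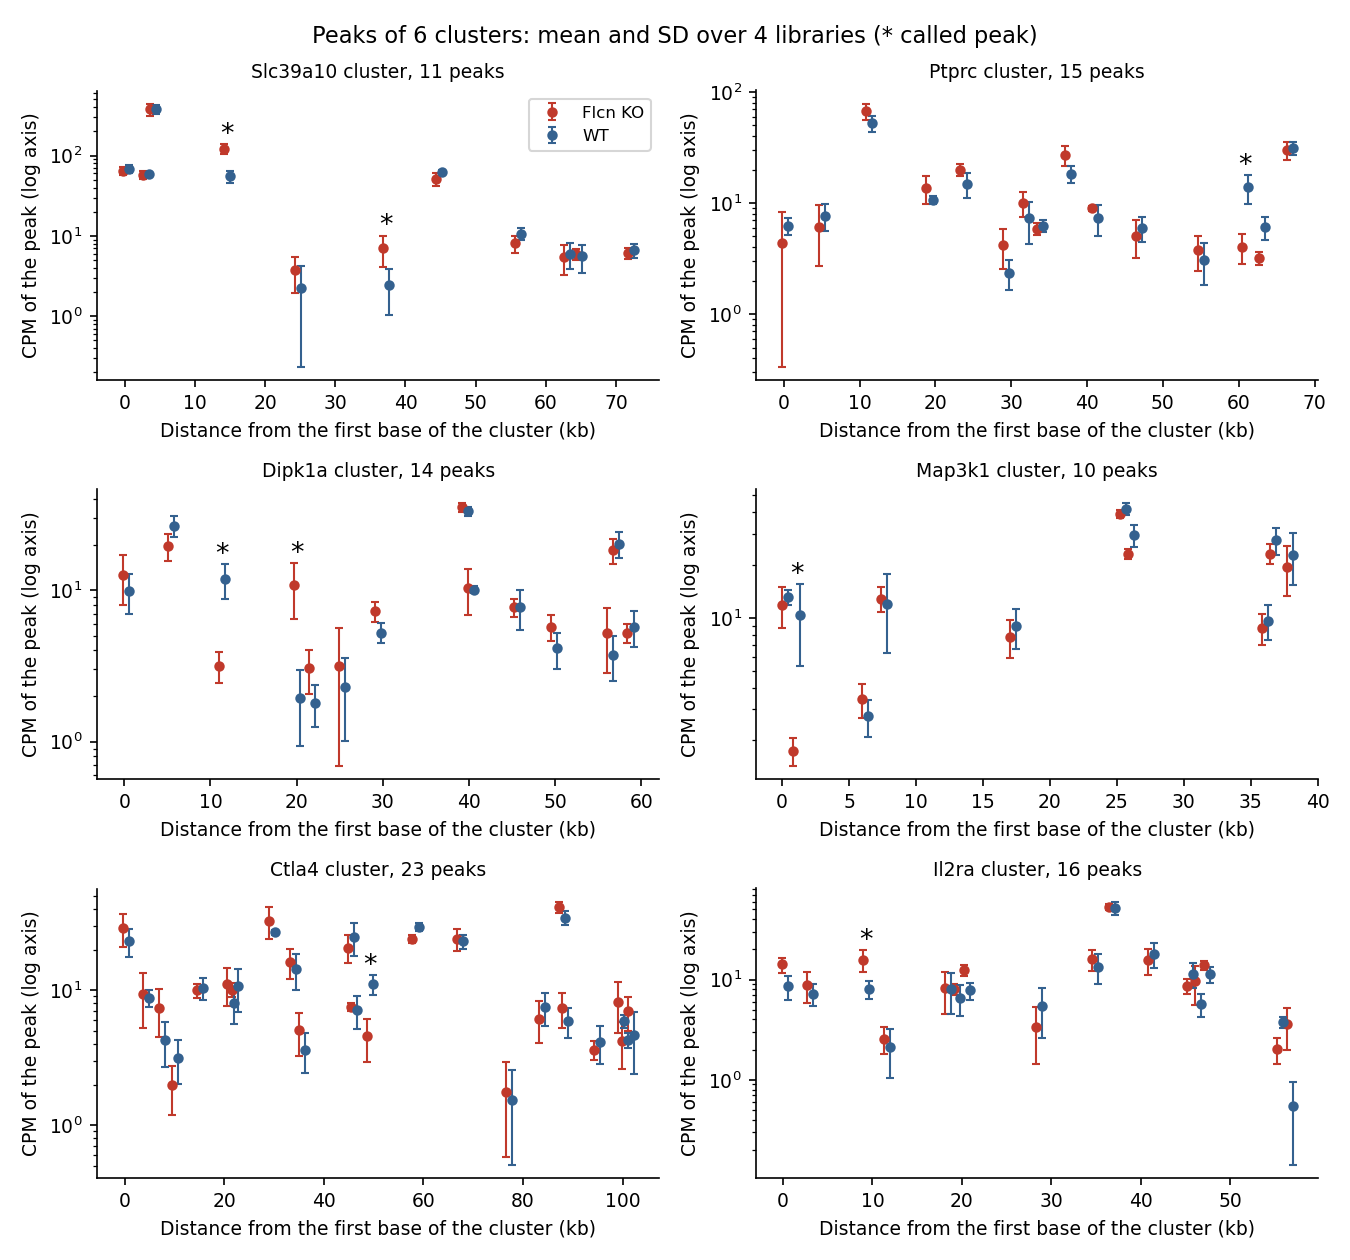
CPM of every peak (vertical, log axis; mean and SD of 4 libraries) along 6 clusters, by distance from the first base of the cluster in kb, with Flcn KO drawn just left of WT at each peak and called peaks starred. The starred peaks of Slc39a10, Ptprc, Dipk1a, Map3k1, Ctla4 and Il2ra stand apart in their means while most of their neighbours lie close together. At the weaker starred peak of Slc39a10 the libraries of the genotypes overlap.

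Treg identity clusters held 6 called peaks among 95 tested (6.32%), 3 in each direction, where 2.37% of all tested peaks were called. In the Ctla4 cluster the peak at 60902478 to 60902934 of chromosome 1 had 5.38, 4.73, 5.87 and 2.25 CPM in Flcn KO, against 12.05, 13.2, 10.5 and 8.71 CPM in WT, with no overlap. It fell and departed from its cluster (log2 fold change −1.24 ± 0.29 SE, adjusted p = 0.0127 by edgeR; −1.32 relative to its cluster, adjusted p for departure = 0.0120), with the call against WT ending without Flcn KO replicate 4 or WT replicate 2. In the Il2ra cluster the peak at 11625927 to 11626261 of chromosome 2 had 20.4, 11.04, 16.1 and 15.7 CPM in Flcn KO, against 7.76, 6.14, 10.03 and 8.23 CPM in WT, and every Flcn KO library was above every WT library. It rose (log2 fold change 0.99 ± 0.24 SE, adjusted p = 0.0181 by edgeR), a call that ended without Flcn KO replicate 1 or WT replicate 1 or 2. In the Ikzf2 cluster the peak at 69691954 to 69692766 of chromosome 1 had 44.2, 43.1, 62.1 and 63.7 CPM in Flcn KO and 43.3, 31.6, 35.6 and 25.7 CPM in WT, and the groups overlapped. It was called higher (log2 fold change 0.63 ± 0.16 SE, adjusted p = 0.0182 by edgeR), a call that ended without Flcn KO replicate 3 or 4 or WT replicate 2 or 4. In the Tnfrsf1b and Tnfrsf8 cluster a peak at 145274862 to 145275320 of chromosome 4 had 7.69, 9.99, 6.85 and 7.49 CPM in Flcn KO against 17.97, 22.8, 12.5 and 14.3 CPM in WT and fell (log2 fold change −1.08 ± 0.24 SE, adjusted p = 0.00766 by edgeR), and the peak at 145221431 to 145222434 of chromosome 4 was higher, with 107 ± 7.12 CPM in Flcn KO and 82.3 ± 8.36 CPM in WT (log2 fold change 0.37 ± 0.10 SE, adjusted p = 0.0392 by edgeR). The first of these calls ended without WT replicate 2 and the second without any 1 of 6 libraries.

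Other peaks that rose lay at Itpr1, Nck2, Map4k4 and Itpkb, near Gng2 and in the T cell receptor beta locus. In Itpr1, the gene of the inositol trisphosphate receptor that releases calcium, the peak at 108528050 to 108528310 of chromosome 6 had 9.999, 8.94, 9.29 and 8.99 CPM in Flcn KO, against 1.84, 3.51, 2.01 and 2.90 CPM in WT, with no overlap (log2 fold change 1.85 ± 0.33 SE, adjusted p = 0.000667 by edgeR; 1.66 relative to its cluster, adjusted p for departure = 0.00511). A second Itpr1 peak, with 3.90 ± 0.538 CPM in Flcn KO and 1.03 ± 0.435 CPM in WT, was also called (log2 fold change 1.88 ± 0.53 SE, adjusted p = 0.0470 by edgeR) but the call ended without any single library, with no filter on low counts and with the replicate block. In Nck2, an adaptor gene of T cell receptor signalling, the peak at 43522009 to 43522475 of chromosome 1 had 17.7, 23.7, 33.8 and 25.5 CPM in Flcn KO, against 8.58, 9.44, 14.0 and 11.6 CPM in WT, also apart (log2 fold change 1.204 ± 0.22 SE, adjusted p = 0.000689 by edgeR; 1.01 relative to its cluster, adjusted p for departure = 0.00246). Departing peaks at Map4k4, the gene of a kinase of stress signalling (24.6 ± 5.13 CPM in Flcn KO and 11.3 ± 1.62 CPM in WT), and Itpkb, the gene of a kinase that acts on inositol trisphosphate (39.3 ± 7.89 CPM in Flcn KO and 24.6 ± 2.69 CPM in WT), rose as well. So did 1 near Gng2, a G protein gamma subunit gene (5.02 ± 1.23 CPM in Flcn KO and 1.145 ± 1.14 CPM in WT), and 1 over the variable segments of the T cell receptor beta locus (48.2 ± 9.27 CPM in Flcn KO and 27.1 ± 5.19 CPM in WT). Their adjusted p by edgeR ran from 0.000832 to 0.0262. The Map4k4, Nck2 and T cell receptor beta calls held under every alternative. The Itpkb call ended without Flcn KO replicate 2 or WT replicate 1, and the Gng2 call without Flcn KO replicate 1 or 3 or WT replicate 2 or 4.

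Further departing peaks rose in clusters near Tomm20 and Pdhx and at Spata13 and Galnt2. A cluster 35 kb from Tomm20, the gene of a receptor for proteins entering mitochondria, had a peak at 126839268 to 126839891 of chromosome 8 with 42.3, 41.0, 44.0 and 39.0 CPM in Flcn KO, against 20.01, 25.5, 20.6 and 20.6 CPM in WT, with no overlap (log2 fold change 0.94 ± 0.15 SE, adjusted p = 0.00014 by edgeR). That call held under every alternative, and the peak lay 90773 bp from the nearest end of a protein-coding gene. Peaks near Pdhx, the gene of a component of the pyruvate dehydrogenase complex (7.37 ± 2.19 CPM in Flcn KO and 2.48 ± 0.363 CPM in WT), and at Spata13, the gene of a guanine nucleotide exchange factor (13.4 ± 2.91 CPM in Flcn KO and 6.20 ± 1.81 CPM in WT), were called too, with log2 fold changes of 1.54 and 1.10. At Galnt2, the gene of an enzyme that starts O-linked glycosylation, a departing peak rose (35.1 ± 3.02 CPM in Flcn KO and 21.0 ± 6.25 CPM in WT; log2 fold change 0.74 ± 0.18 SE, adjusted p = 0.0181 by edgeR) and another peak of the cluster fell (14.9 ± 1.295 CPM in Flcn KO and 24.5 ± 4.80 CPM in WT; log2 fold change −0.71 ± 0.19 SE, adjusted p = 0.0330 by edgeR). The Pdhx call ended without Flcn KO replicate 2 or 3, and the Spata13 and Galnt2 calls each without 3 or 4 of the single libraries. Among the largest changes without departure were peaks at Etv6, an ETS family repressor gene (6.91 ± 1.66 CPM in Flcn KO and 2.31 ± 1.68 CPM in WT; log2 fold change 1.54 ± 0.42 SE, adjusted p = 0.0392 by edgeR), and Retreg1, a receptor gene of autophagy of the endoplasmic reticulum (6.98 ± 3.18 CPM in Flcn KO and 2.48 ± 0.703 CPM in WT; log2 fold change 1.52 ± 0.39 SE, adjusted p = 0.0234 by edgeR). Of this pair the groups overlapped at Retreg1 and not at Etv6, and both calls ended without most single libraries.

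Among the departing peaks that fell, Sgms1, the gene of a sphingomyelin synthase, had 1.54, 0.526, 0.489 and 2.25 CPM in Flcn KO at 32216705 to 32217034 of chromosome 19, against 6.53, 4.83, 4.01 and 5.33 CPM in WT, with no overlap (log2 fold change −2.14 ± 0.49 SE, adjusted p = 0.00943 by edgeR). Stat4, the gene of a transducer of interleukin-12 signalling, had 2.69, 3.68, 0.489 and 0.749 CPM in Flcn KO at 52040518 to 52041006 of chromosome 1, against 5.92, 7.46, 6.52 and 7.02 CPM in WT, also apart (log2 fold change −1.75 ± 0.43 SE, adjusted p = 0.0170 by edgeR). A second Stat4 peak, with 5.66 ± 0.843 CPM in Flcn KO and 11.5 ± 3.98 CPM in WT, was called lower as well (log2 fold change −1.03 ± 0.29 SE, adjusted p = 0.0422 by edgeR). The summed Stat4 cluster had 136 ± 8.21 CPM in Flcn KO and 138 ± 15.4 CPM in WT and was not called (log2 fold change −0.02 ± 0.10 SE, adjusted p = 0.961 by edgeR). Cblb (3.86 ± 1.09 CPM in Flcn KO and 9.28 ± 3.55 CPM in WT; log2 fold change −1.22 ± 0.33 SE, adjusted p = 0.0350 by edgeR) and the pair Tg and Sla (2.80 ± 2.21 CPM in Flcn KO and 8.71 ± 4.14 CPM in WT; log2 fold change −1.54 ± 0.42 SE, adjusted p = 0.0478 by edgeR) each had a departing peak that was called lower with overlapping groups. Sla encodes an adaptor that lowers T cell receptor levels, and another peak of its cluster was called higher (35.4 ± 2.78 CPM in Flcn KO and 22.7 ± 5.58 CPM in WT; log2 fold change 0.63 ± 0.17 SE, adjusted p = 0.0323 by edgeR). The Sgms1 call ended without WT replicate 1, with an adjusted p of 0.0609. The calls at Stat4, Cblb and the pair Tg and Sla ended without 4 or more of the single libraries each, with adjusted p up to 0.278. The call in the pair Tg and Sla also ended with library size alone, with loess offsets and with a stricter filter.

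Over the other lists, the share of tested peaks called is given beside each count and stands against 2.37% of all tested peaks. The cytokine receptor and STAT clusters had 2 higher of 61 tested peaks (3.28%), both in the Tgfbr2 cluster, which lies over the gene that encodes the TGF-beta receptor type 2. The larger change there was at 116160116 to 116160453 of chromosome 9, with 7.31, 8.41, 8.80 and 5.995 CPM in Flcn KO and 5.10, 2.63, 2.51 and 2.42 CPM in WT, where the groups did not overlap (log2 fold change 1.25 ± 0.35 SE, adjusted p = 0.0412 by edgeR). That call ended with loess offsets and without 5 of the single libraries. The other Tgfbr2 peak, at 116187385 to 116187816, had 22.3 ± 2.03 CPM in Flcn KO and 13.1 ± 5.13 CPM in WT, with overlapping groups. It was called higher (log2 fold change 0.77 ± 0.22 SE, adjusted p = 0.0495 by edgeR). The call of this second peak ended under 11 of 15 alternatives, DESeq2 among them. The resting T cell clusters had 1 higher of 98 (1.02%), at the Lef1 and Hadh cluster, with 7.69, 5.78, 7.34 and 5.995 CPM in Flcn KO and 2.45, 3.07, 3.51 and 0.484 CPM in WT, also apart (log2 fold change 1.49 ± 0.40 SE, adjusted p = 0.0363 by edgeR), a call that ended without any 1 of 7 libraries. The transcription factor clusters had 1 higher of 155 (0.645%), in Tox (153 ± 29.4 CPM in Flcn KO and 112 ± 14.0 CPM in WT; log2 fold change 0.44 ± 0.12 SE, adjusted p = 0.0373 by edgeR), and T cell receptor and costimulation clusters had 1 higher and 3 lower of 159 (2.52%), in the clusters of Sla, Cblb and Ptprc. Effector and tissue Treg clusters had 1 higher and 1 lower of 25 (8%), both in the Tnfrsf1b and Tnfrsf8 cluster. The single T helper lineage cluster, at Stat4, had 2 lower of 10 (20%), a share that rests on 1 cluster. The apoptosis clusters had 0 called of 22 (0%). In the Chd2 cluster a peak was called higher (14.7 ± 2.11 CPM in Flcn KO and 7.38 ± 1.43 CPM in WT; log2 fold change 0.99 ± 0.25 SE, adjusted p = 0.0193 by edgeR) and in Rapgef1 a peak was called lower (2.65 ± 0.541 CPM in Flcn KO and 6.75 ± 1.97 CPM in WT; log2 fold change −1.35 ± 0.37 SE, adjusted p = 0.0425 by edgeR). The Chd2 call ended without Flcn KO replicate 2 or 3 or WT replicate 2, the Tox call without 6 single libraries, and the Rapgef1 call with the replicate block and without any single library but WT replicate 1.

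Peaks at the gene ends of the same loci, which the rule leaves out, gave a separate readout. The named clusters cover or lie nearest to 33 genes, whose ends had 67 tested peaks. By edgeR 0 were higher and 0 were lower, where 1.35% and 1.02% of all tested peaks were. Among all tested peaks within 2500 bp of a gene end the shares were 0.451% and 0.395%. With shares this low, 0 of 67 does not set these loci apart. Unadjusted p-values below 0.05 were found for 6 higher and 1 lower of them, and DESeq2 called 0. At Slc39a10 the gene-end peak had 15.1 ± 2.71 CPM in Flcn KO and 14.2 ± 3.32 CPM in WT (log2 fold change 0.09 ± 0.22 SE, adjusted p = 0.921 by edgeR). At Ctla4 the highest gene-end peak had 91.2 ± 12.3 CPM in Flcn KO and 81.9 ± 9.42 CPM in WT (0.15 ± 0.11 SE, adjusted p = 0.625 by edgeR). At Il2ra it had 42.9 ± 3.43 CPM in Flcn KO and 34.3 ± 4.01 CPM in WT (0.33 ± 0.14 SE, adjusted p = 0.282 by edgeR). By edgeR, Tox (0.43, adjusted p = 0.0781) and Ptprc (0.71, adjusted p = 0.0823) came closest to the threshold at their highest gene-end peaks.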

How the data were processed

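ATAC-seq was measured in 8 libraries of sorted splenic Treg cells, 4 Flcn KO and 4 WT. The authors deposited 1 table of counts per peak and library, whole numbers that were not normalized, as the values and the file header show. The submitters' processing notes name MACS2 2.1.1, BWA 0.7.16, bedtools 2.25.0, Trimmomatic 0.36, SAMtools 1.9 and Picard 2.9.4, and build mm10. These notes as used here do not give the role or order of the tools, duplicate removal, a read shift, or whether peaks were called per library, and any of these can change which peaks are listed and how wide they are. Library totals are given with the results; 0 columns came from other series.

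Gene positions came from the RefSeq table of GRCm38.p6, and starts are given 1-based. Counts of the peaks of each distal region were summed. Peaks and regions were filtered with edgeR's filterByExpr (minimum count 10), scaled by TMM and tested over all features with the robust quasi-likelihood test in edgeR 4.0.16 (limma 3.58.1, R 4.3.3), Benjamini-Hochberg threshold 0.05. Tables were handled in Python 3.11.15 with pandas 2.3.3 and numpy 2.4.6. Departure from the region was tested with edgeR's exon usage test. The share of counts in clusters was compared by an exact permutation test. The fits were tested on simulated data with known changes. CPM is the count of a peak scaled to the TMM-adjusted library size.

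Members and gene lists were chosen with earlier results of these data known. Clusters were named by rule: the 8 with most peaks, the 8 highest in WT, called clusters (up to 10 per direction, or the 4 with lowest p where none was called), the 6 with lowest departure p, and those over Treg identity genes. Peaks were named if among up to 8 called per direction by size, or called within a named cluster. Of the 46 peaks named, 33 came from this rule, and the other departing or called peaks were added after their values were seen. Other clusters in the text (such as those of Cd28, Icos and Stat4) were chosen as neighbours, list members or holders of a named peak. Alternatives were DESeq2 1.42.0 as the test and as size factors, library size alone, loess offsets, no filter, a stricter filter, other gaps, sizes and distances in the rule, a replicate block, and each library left out. Peak sequences were not analysed here.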

Additional observations from a re-analysis of the deposited data

Results flagged for a closer look

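In 9 of 154 groups of 4 libraries (5.84%), over the clusters and peaks named in the text, 1 library lay apart from the other 3 by a gap that was a larger part of the group's whole range than Dixon's limit for 4 values allows. Chance gives this in about 1 in 20 groups. For the Ctla4 cluster Flcn KO replicate 1 had 244 CPM where the other Flcn KO libraries had 304 to 312. For the Il2ra cluster Flcn KO replicate 4 had 181 CPM where the others had 200.2 to 201. For the Chd2 cluster WT replicate 1 had 696 CPM where the others had 642 to 647. For the Smco4 peak Flcn KO replicate 1 had 0.385 CPM, the only Flcn KO library with counts. For the peak near Cd69 Flcn KO replicate 3 had 2.93 CPM where the others had 1.499 to 1.58. For the Galnt2 peak that fell, WT replicate 1 had 31.6 CPM where the others had 21.5 to 22.8. For the peak in the cluster near Tomm20 WT replicate 2 had 25.5 CPM where the others had 20.01 to 20.6. For the Btg1 peak at 96575356 of chromosome 10 WT replicate 3 had 6.52 CPM where the others had 10.2 to 10.9. For the Tgfbr2 peak at 116160116 of chromosome 9 WT replicate 1 had 5.10 CPM where the others had 2.42 to 2.63.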

How the results depend on the processing

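The 4 clusters and 67 peaks called rest on 4 libraries per genotype, and small changes of weak peaks were not detectable at this depth. Loess offsets gave 2 clusters higher and 2 lower, and a stricter filter and DESeq2 each gave 7 higher. A gap of at most 5000 bp left 5 clusters, of which 0 were higher, with 0 member peaks higher and 1 lower. A gap of at most 25000 bp gave 713 clusters, 29 higher and 9 lower, with 171 member peaks higher and 98 lower. Clusters of 8 or more peaks (439) gave 10 higher and 1 lower, and those of 15 or more (69) gave 2 higher, with 18 member peaks higher and 7 lower. Leaving out 1 library at a time gave 0 to 19 clusters higher and 0 to 4 lower, 22 to 61 member peaks higher and 9 to 35 lower, and 10 to 33 departing peaks. Without Flcn KO replicate 1, the 23 clusters called included the 4. For the counts under the alternatives in this section, the matching shares over all regions or peaks are not given. A shift in calls over the whole table cannot be told apart from one of the clusters. Leaving out 1 library, the difference in the share of counts in clusters ran from 0.102 to 0.304 percentage points, with exact permutation p from 0.257 to 0.600. Under the other gaps, sizes and distances of the rule, which change what is summed, it ran from 0.00855 percentage points (gap of at most 5000 bp, exact permutation p = 0.2) to 0.560 (gap of at most 25000 bp, exact permutation p = 0.314).

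The sign of the log2 fold change turned with loess offsets at Slc39a10 (−0.00121), Dipk1a (−0.0214), Chd2 (−0.0814), Prkch (−0.0468) and Cblb (−0.00343). Without single libraries it ran from −0.0817 to 0.0447 at Rapgef2, −0.0593 to 0.0428 at Tnfrsf1b and Tnfrsf8, −0.0312 to 0.0672 at Dipk1a, −0.0271 to 0.0581 at Chd2 and −0.00481 to 0.107 at Prkch. No named peak changed sign. The cause of these changes was not tested. Libraries with the same replicate number showed little shared deviation (correlations 0.08, −0.05, 0.06 and 0.05). The labels do not say whether the numbers pair the samples, and such correlations cannot exclude a pairing. With a replicate block 6 clusters were higher and 0 lower, 55 member peaks were higher and 26 lower, and 28 departed. For the share difference, an exact permutation test within replicate numbers gave p = 0.5, where the smallest possible is 0.125.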
